A study of Rattus norvegicus with 4 samples.

Results

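The ADAMTS proteases described here are Adamts1, Adamts2, Adamts4, Adamts5, Adamts7 and Adamts9, taken by symbol from the 14218 genes that had a named probe set on a rat expression array. Of these 6 genes, 5 had at least 1 probe set annotated to that symbol alone, and they held 7 of the 31099 probe sets. Adamts2 had none and has no value here. All 4 groups were cultured smooth muscle cells of the aorta, which contract to set vessel tone, from Sprague-Dawley rats whose age the labels do not give. Every culture was grown with serum for 3 days, kept without serum for 3 days, and then treated for 24 h. The IL-1b group received interleukin-1b, an inflammatory cytokine, at 2.5 ng/mL, and the IL-1b vehicle group received acetic acid at 10 mM with bovine serum albumin (BSA) at 0.1%. The PDGF-DD group received platelet-derived growth factor DD, a mitogen for these cells, at 30 ng/mL, and the PDGF-DD vehicle group received 0.01% BSA. Each group was 1 array, so the differences below are between single arrays, have no replicate check and carry no p-value.

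ADAMTS enzymes are secreted zinc proteases that carry thrombospondin type repeats and act on proteins of the extracellular matrix. They are made with a prodomain that furin-type convertases remove. Adamts1, Adamts4, Adamts5 and Adamts9 cleave the large proteoglycans versican and aggrecan, and Adamts4 and Adamts5 are known as the aggrecanases of cartilage. Adamts7 cleaves cartilage oligomeric matrix protein (COMP) and is known for its role in smooth muscle cell migration after arterial injury. Adamts2 removes the amino-terminal propeptide of fibrillar procollagens. The inhibitor Timp3 blocks Adamts4 and Adamts5, and the receptor Lrp1 takes several of these enzymes up from the cell surface.

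Promoter windows, from 250 bases before to 50 bases after the annotated start, are shown for a pair of genes that were lower with either factor (Adamts1 and Adamts9) and a pair that were higher with IL-1b (Adamts4 and Adamts7). The windows are from RefSeq on the build GRCr8, whose table held one for 5 of the 6 genes, all but Adamts5. They lie at chr11:38427335-38427634 (minus strand) for Adamts1, chr4:127019827-127020126 (minus strand) for Adamts9, chr13:86202761-86203060 (plus strand) for Adamts4 and chr8:99584279-99584578 (plus strand) for Adamts7. Capitals mark matches, on either strand, to the GC box, the TATA box, the AP-1 site, the NF-kappaB site or the CArG box, which are short motifs bound by transcription factors.
Adamts1: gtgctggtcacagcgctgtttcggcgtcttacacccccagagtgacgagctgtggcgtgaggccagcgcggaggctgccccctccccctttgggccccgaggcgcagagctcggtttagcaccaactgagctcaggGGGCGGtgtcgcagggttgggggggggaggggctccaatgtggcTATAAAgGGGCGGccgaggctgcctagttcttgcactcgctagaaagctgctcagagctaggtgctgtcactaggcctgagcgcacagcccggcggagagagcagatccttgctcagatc
Adamts9: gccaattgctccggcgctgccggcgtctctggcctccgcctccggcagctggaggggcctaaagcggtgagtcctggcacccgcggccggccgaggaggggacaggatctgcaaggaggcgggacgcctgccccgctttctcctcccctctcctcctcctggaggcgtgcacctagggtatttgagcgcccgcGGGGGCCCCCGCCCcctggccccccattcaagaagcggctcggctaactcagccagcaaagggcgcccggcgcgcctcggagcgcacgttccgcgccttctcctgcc
Adamts4: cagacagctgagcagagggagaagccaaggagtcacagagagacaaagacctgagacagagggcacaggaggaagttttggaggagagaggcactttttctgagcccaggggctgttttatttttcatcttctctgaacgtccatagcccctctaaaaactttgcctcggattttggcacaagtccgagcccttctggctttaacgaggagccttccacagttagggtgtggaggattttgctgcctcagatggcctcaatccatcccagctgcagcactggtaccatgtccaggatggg
Adamts7: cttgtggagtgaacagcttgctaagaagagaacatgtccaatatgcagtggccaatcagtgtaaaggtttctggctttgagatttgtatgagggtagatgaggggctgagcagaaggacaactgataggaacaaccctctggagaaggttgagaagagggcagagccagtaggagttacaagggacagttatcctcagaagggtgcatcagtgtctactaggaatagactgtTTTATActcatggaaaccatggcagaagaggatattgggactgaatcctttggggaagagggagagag

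The windows differed in base composition. Adamts1 and Adamts9 had a G+C content of 65.0% and 72.3% with 18 and 30 CpG dinucleotides, while Adamts4 and Adamts7 had 52.3% and 46.7% with 4 and 0 CpG dinucleotides. The median of all 33469 windows was 51.7%. The pairs were picked by the direction of their values, and Adamts7 was also lower with PDGF-DD, so the contrast is a description only. The window of Adamts2, which has no expression value and is not shown, had 76.7% with 39 CpG dinucleotides. The Adamts1 window held 1 TATA box, spelled TATAAA, whose first base was 70 bases before the start. It also held 2 GC boxes, spelled GGGCGG, whose first bases were 114 and 63 bases before the start. In the Adamts9 window 1 palindromic stretch, 57 bases before the start, matched the NF-kappaB site on each strand and overlapped the only GC box, at 49 bases. The Adamts7 window had a TATA box on the opposite strand, 18 bases before the start, and the Adamts4 window had no match. No AP-1 site, spelled TGANTCA, was in the 4 windows shown, and no CArG box either. Over all windows, 33.1% held a GC box, 14.2% a TATA box, 7.33% an AP-1 site, 7.51% an NF-kappaB site and 1.64% a CArG box.

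Values below are probe set intensities after each array was rescaled to a common trimmed mean, and a floor of 28.1, the 40th percentile of all probe sets, stands for background. Between 58.3% and 61.5% of probe sets were above it on each array. Of 14 genes of other organs, 11 were below the floor on all 4 arrays, and none of the 7 measured reference genes differed by 2-fold in any of the 5 comparisons made. Of 7 smooth muscle markers, 7 were above the floor on the IL-1b vehicle array and 6 on the others, where desmin (Des) was below it. On each array 4 or 5 of the 5 measured fibroblast markers were above it too, so these counts do not separate the cell types. The summed smooth muscle intensity was far from constant. It was 27111 with the IL-1b vehicle, 8453 with IL-1b, 19890.3 with the PDGF-DD vehicle and 4532 with PDGF-DD. The 3' over 5' probe set ratio of beta-actin, which rises as RNA degrades, was 1.58, 2.05, 1.26 and 1.37 in the same order.

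**Figure D1:**
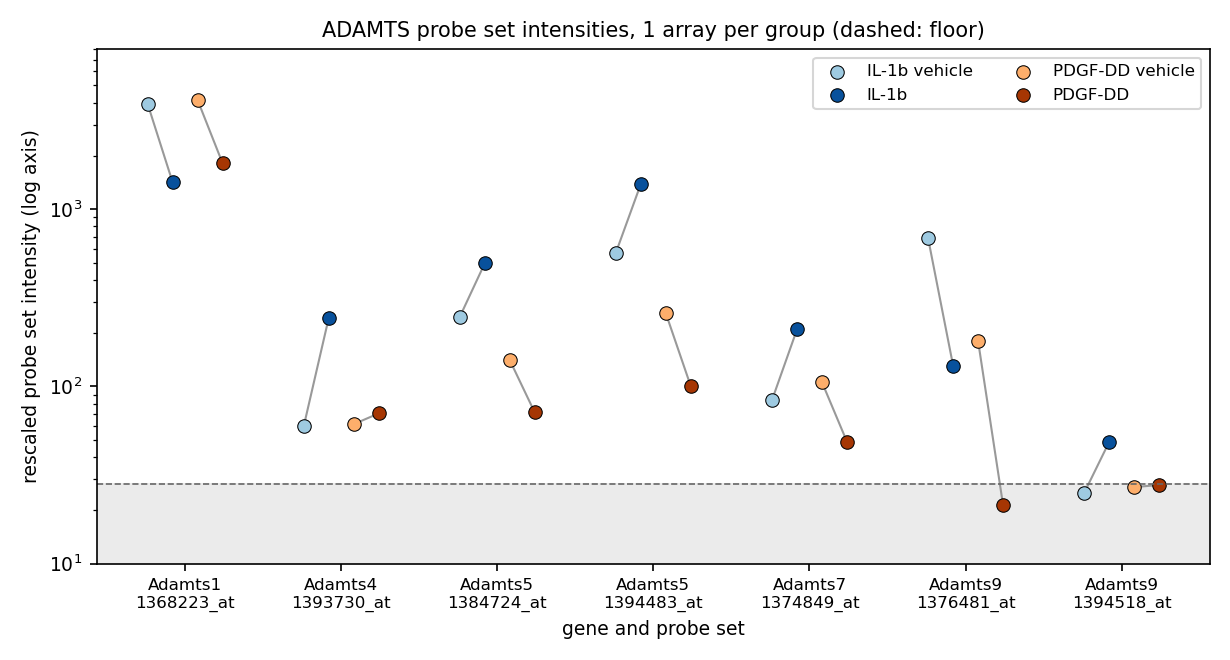
Rescaled intensity (log axis) of each ADAMTS probe set on the 4 arrays, 1 point per array, with lines joining each factor to its own vehicle; the shaded area lies below the floor of 28.1. Adamts1 is lower with either factor, both probe sets of Adamts5 and that of Adamts7 are higher with IL-1b and lower with PDGF-DD, and 1 of 2 Adamts9 probe sets is near the floor throughout.

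With IL-1b, the proteoglycan-cleaving Adamts4 and Adamts5 and the COMP-cleaving Adamts7 were higher than with vehicle. Adamts1 and Adamts9, which also cleave proteoglycans, were lower. By the probe set of highest mean intensity, all 5 measured genes were at least 2-fold apart, as were 11.6% of all genes. Of the 5, 3 were higher and 2 lower, beside 6.15% and 5.42% of all genes. With PDGF-DD, 4 of the 5, all but Adamts4, were at least 2-fold lower, beside 4.67% of all genes. Between the vehicle arrays 2 of the 5, Adamts5 and Adamts9, were at least 2-fold lower in the PDGF-DD vehicle than in the IL-1b vehicle, beside 4.67% of all genes there too. The median log2 ratio of the 5 genes was 1.29 with IL-1b and -1.19 with PDGF-DD, beside 0.02 and 0.01 over all genes tested. In these whole cultures, fewer cells that express a gene and less RNA per cell cannot be told apart.

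Adamts1, a proteoglycanase that also binds vascular endothelial growth factor, had an intensity of 3938 with the IL-1b vehicle, 1422 with IL-1b, 4140.3 with the PDGF-DD vehicle and 1821 with PDGF-DD. Both factor arrays were lower than both vehicle arrays, and the share of all genes with this order was not counted. The level was 2.77-fold lower with IL-1b and 2.27-fold lower with PDGF-DD, and the vehicle arrays were 1.05-fold apart. Set against the other vehicle array, the differences were 2.91-fold lower for IL-1b and 2.16-fold lower for PDGF-DD. The probe set was above 95.1% of all probe sets even on its dimmest array. Genes were also split by mean level into 5 bands of equal size, and in the band of Adamts1 5.51% of genes were at least 2-fold apart between the vehicle arrays.

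Adamts9, a proteoglycanase that is also needed for normal heart and vessel development, spanned a wider range. Its brighter probe set had 684 with the IL-1b vehicle, 131 with IL-1b, 180.3 with the PDGF-DD vehicle and 21.4, below the floor, with PDGF-DD. Each factor array was thus lower than its own vehicle, but the IL-1b array and the PDGF-DD vehicle array were close. The level was 5.22-fold lower with IL-1b, the 82nd lowest log2 ratio of 10679 genes. With PDGF-DD it was at least 6.42-fold lower. The vehicle arrays themselves were 3.79-fold apart, so that against the other vehicle array IL-1b was 1.38-fold lower and PDGF-DD at least 24.3-fold lower. Both bounds for PDGF-DD depend on the settings. As log2 ratios against its own vehicle and the IL-1b vehicle they were -2.68 and -4.61, but -1.75 and -3.68 with the floor at the 50th percentile, and -1.34 and -2.30 with the mean of both probe sets.

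The other Adamts9 probe set did not show this. It was below the floor on 3 arrays (25.1 with the IL-1b vehicle, 27.0 with the PDGF-DD vehicle and 27.8 with PDGF-DD) and had 48.6 with IL-1b, at least 1.73-fold higher than with vehicle. The direction given for Adamts9 with IL-1b therefore rests on 1 of its 2 probe sets. In the band of mean level that holds Adamts4, Adamts7 and Adamts9, 17.2% of genes were at least 2-fold apart between the vehicle arrays.

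Adamts4, an aggrecanase induced by inflammatory cytokines in cartilage, had 59.5 with the IL-1b vehicle, 243 with IL-1b, 61.2 with the PDGF-DD vehicle and 70.4 with PDGF-DD. Only the IL-1b array stood apart, and the other 3 arrays lay within 1.18-fold of the lowest. The level was 4.08-fold higher with IL-1b than with its own vehicle and 3.96-fold higher than with the PDGF-DD vehicle. With PDGF-DD it was 1.15-fold higher than with its vehicle, and the vehicle arrays were 1.03-fold apart. On those 3 arrays the probe set was brighter than 51.3% to 54.5% of all probe sets, not far above the floor.

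Adamts5, the other aggrecanase, was measured by 2 probe sets. The brighter had 569 with the IL-1b vehicle, 1392 with IL-1b, 258 with the PDGF-DD vehicle and 100.04 with PDGF-DD. The dimmer had 247, 496, 141 and 71.3 in the same order. Both gave the same order of arrays, with IL-1b highest and PDGF-DD lowest. With IL-1b the level was 2.44-fold higher by the brighter probe set and 2.01-fold by the dimmer. With PDGF-DD it was 2.58-fold lower and 1.97-fold lower.

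The vehicle arrays also differed in Adamts5, which was 2.20-fold lower in the PDGF-DD vehicle than in the IL-1b vehicle by the brighter probe set and 1.76-fold by the dimmer. The difference between the vehicle arrays was thus nearly as large as that between each factor and its own vehicle. Against the other vehicle array, IL-1b was 5.39-fold higher and PDGF-DD 5.69-fold lower by the brighter probe set. In its band of mean level 6.75% of genes were at least 2-fold apart between the vehicle arrays.

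Adamts7, the protease of COMP, had 83.8 with the IL-1b vehicle, 209.8 with IL-1b, 106 with the PDGF-DD vehicle and 48.7 with PDGF-DD. The vehicle arrays lay between the factor arrays, 1.26-fold apart. The level was 2.50-fold higher with IL-1b and 2.17-fold lower with PDGF-DD, each against its own vehicle. These differences were smaller against the other vehicle array, 1.99-fold higher and 1.72-fold lower, both under 2-fold. With a floor at the 50th percentile the log2 ratio with PDGF-DD was -0.98, and with no floor and a pseudocount of 16 it was -0.91, so the 2-fold call for PDGF-DD depends on how low values are handled.

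**Figure D2:**
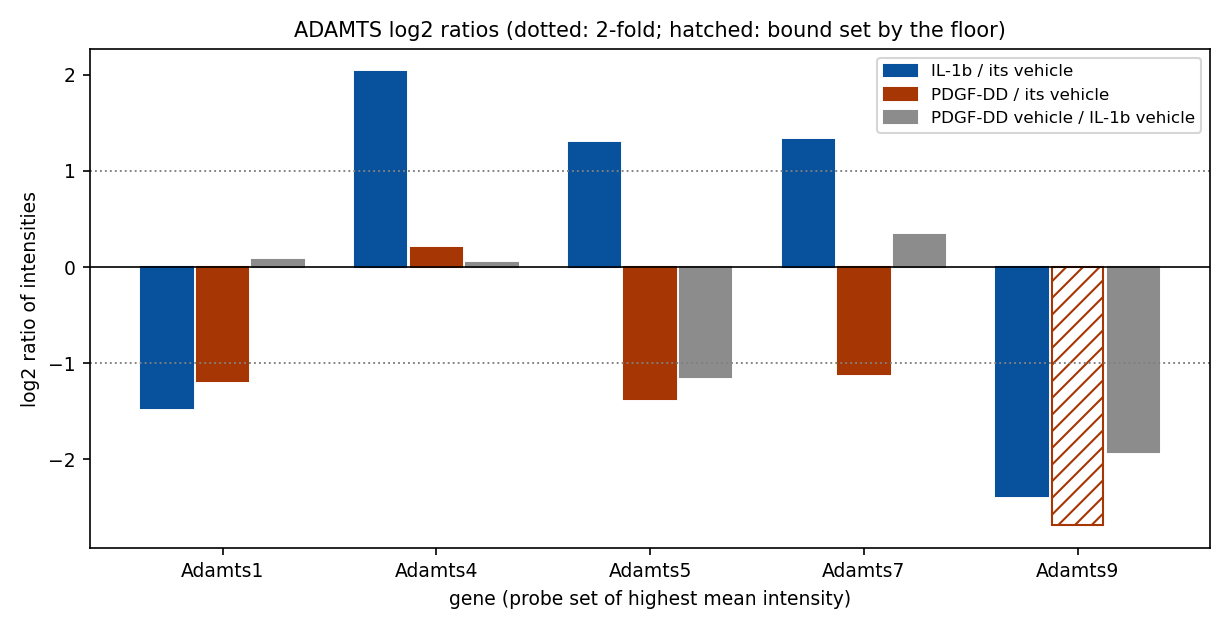
Log2 ratio of intensities for the probe set that stands for each gene, for IL-1b over its vehicle, PDGF-DD over its vehicle, and the PDGF-DD vehicle over the IL-1b vehicle; dotted lines mark 2-fold and the hatched bar is a bound set by the floor. With IL-1b 3 bars point up and 2 down, with PDGF-DD 4 pass 2-fold downwards, and the vehicle bars of Adamts5 and Adamts9 (-1.14 and -1.92) also pass it.

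Counted against the other vehicle array, 3 of the 5 genes were at least 2-fold apart for IL-1b. Adamts4 and Adamts5 were higher, beside 5.44% of all genes, and Adamts1 was lower, beside 4.97%. For PDGF-DD 3 of the 5, Adamts1, Adamts5 and Adamts9, were lower, beside 10.3% of all genes. These comparisons share the factor arrays with those above. Adamts1 with either factor, Adamts4 and Adamts5 with IL-1b, and Adamts5 and Adamts9 with PDGF-DD met the 2-fold rule against both vehicle arrays. The share of all genes that met it against both was not counted. With the values as deposited, Adamts1 on the PDGF-DD array stood at -0.9998 (log2) relative to the IL-1b vehicle, just under 2-fold, which took the count for PDGF-DD from 3 to 2. Adamts7 with either factor and Adamts9 with IL-1b met it against their own vehicle alone.

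The remaining family genes were described from a list of 19 ADAMTS and ADAMTS-like genes, of which 11 had a probe set and 9 exceeded the floor on 1 or more arrays. Adamts16 and Adamts19 were below it on all 4. With IL-1b 2 of the 9 were at least 2-fold higher and 2 lower, beside 6.15% and 5.42% of all genes. The median log2 ratio was -0.42. With PDGF-DD none was higher and 4 were lower, beside 4.67% of all genes lower, with a median of -0.83. Between the vehicle arrays 1 was higher and 3 lower in the PDGF-DD vehicle, with a median of -0.81. Of all genes tested there, 1087 of 10389 were at least 2-fold apart in either direction, and 4.67% were lower.

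Adamts8, a proteoglycanase, had the highest ratio of the family with IL-1b. Its intensity was 51.4 with the IL-1b vehicle, 489 with IL-1b, 18.4 (below the floor) with the PDGF-DD vehicle and 35.7 with PDGF-DD. This was 9.52-fold higher with IL-1b than with its own vehicle and at least 17.4-fold higher than with the PDGF-DD vehicle. Like Adamts4, Adamts8 was high on the IL-1b array and low on the other 3.

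Several family genes were lower with PDGF-DD. Adamts12, which like Adamts7 cleaves COMP, had 1674 and 730 with the IL-1b vehicle and IL-1b and 1032 and 272 with the PDGF-DD vehicle and PDGF-DD. It was 2.29-fold lower with IL-1b and 3.79-fold lower with PDGF-DD, whereas Adamts7 was higher with IL-1b. Adamtsl4, an ADAMTS-like protein without protease activity that is linked to fibrillin microfibrils, was 3.38-fold lower with IL-1b and 3.37-fold lower with PDGF-DD, and its vehicle arrays were 2.26-fold apart. Adamts15, a proteoglycanase, was 1.18-fold lower with IL-1b and at least 4.22-fold lower with PDGF-DD, at 21.9 against 118, but its level with the IL-1b vehicle was 529. Adamts10, which is linked to microfibrils, was 3.32-fold lower with PDGF-DD by its brighter probe set, with a log2 ratio of -0.10 by the other.

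**Figure D3:**
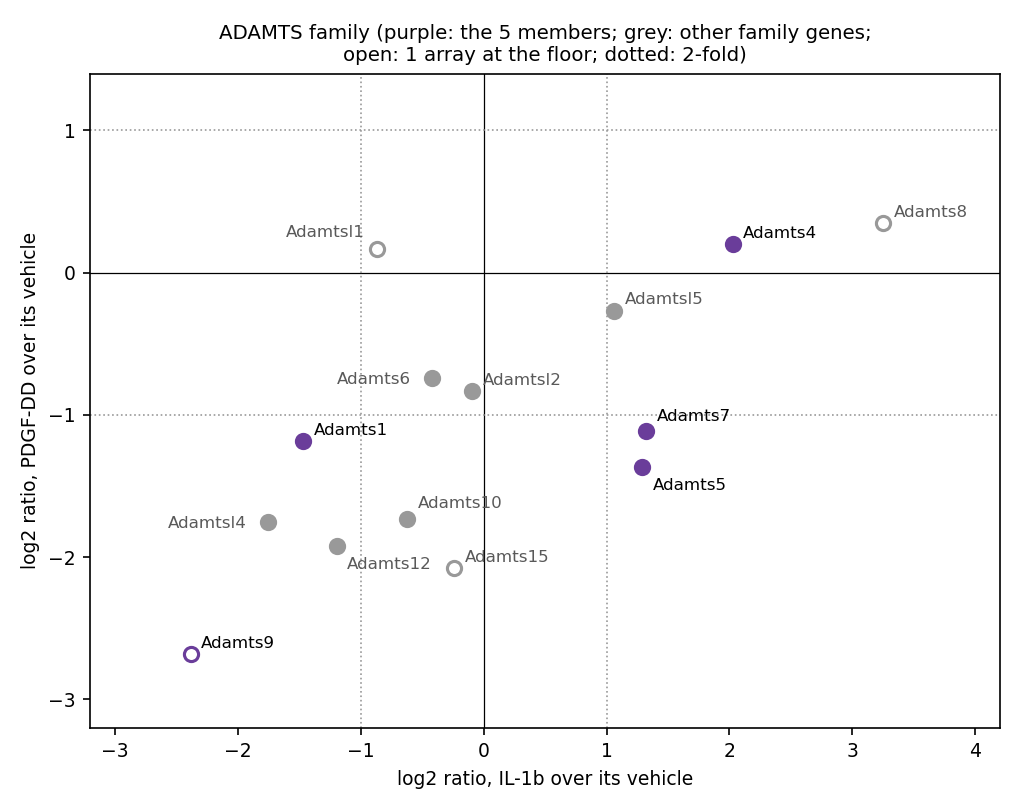
Log2 ratio with IL-1b over its vehicle (horizontal) against log2 ratio with PDGF-DD over its vehicle (vertical) for the 5 members and 9 other ADAMTS and ADAMTS-like genes, 1 point per gene; open points had 1 array at the floor and dotted lines mark 2-fold. Adamts4 and Adamts8 lie to the right near 0 on the vertical axis, Adamts5 and Adamts7 in the lower right, and Adamts1, Adamts9, Adamts12 and Adamtsl4 in the lower left.

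A list of 14 proteoglycans, link proteins, hyaluronan synthases and related genes, 12 with a probe set, held substrates of the proteoglycan-cleaving members. Not all of its genes are substrates. With IL-1b 2 of 11 tested were at least 2-fold higher, beside 6.15% of all genes, and none lower. The median log2 ratio was 0.35. With PDGF-DD 2 of the 3 tested were higher. For each factor the 2 were Vcan and Cd44. Of all genes tested with PDGF-DD, 904 of 10142 were at least 2-fold apart in either direction. Versican (Vcan), the main large proteoglycan of the vessel wall, had 227 and 2169 with the IL-1b vehicle and IL-1b, 9.54-fold apart, and 894 and 1789 with the PDGF-DD vehicle and PDGF-DD, 2.002-fold apart. Its 4 other probe sets gave log2 ratios from 0.06 to 3.78 with IL-1b and from 0.31 to 1.25 with PDGF-DD. Cd44, the hyaluronan receptor, was 21.0-fold higher with IL-1b and 3.04-fold higher with PDGF-DD. Between the vehicle arrays Vcan was 3.93-fold and Cd44 6.93-fold higher in the PDGF-DD vehicle. The probe set that stands for aggrecan (Acan) was above the floor on the IL-1b array alone, at 45.1, and its other probe set had a log2 ratio of 0.10 with PDGF-DD.

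Procollagens and their processing genes are the setting in which Adamts2 acts. By the probe sets that stand for the genes, all 8 tested had lower values with each factor, none by 2-fold, with a median log2 ratio of -0.28 with IL-1b and -0.50 with PDGF-DD. The second probe set of the collagen chaperone Serpinh1 had a log2 ratio of 1.15 with IL-1b. The chain Col1a1 had 9091 and 8460 with the IL-1b vehicle and IL-1b, and 7156 and 4731 with the PDGF-DD vehicle and PDGF-DD. Col3a1 was 1.22-fold lower with IL-1b and 1.29-fold lower with PDGF-DD.

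Among other reported substrates, 5 of the 7 listed were tested, with 1 at least 2-fold higher and 2 lower for each factor. Over all genes 6.15% were higher and 5.42% lower with IL-1b, and 4.67% were lower with PDGF-DD. In either direction, 904 of the 10142 genes tested with PDGF-DD were at least 2-fold apart. Comp, the substrate of Adamts7, had 145 and 40.6 with the IL-1b vehicle and IL-1b, and 80.3 and 28.2 with the PDGF-DD vehicle and PDGF-DD. It was 3.56-fold and 2.84-fold lower, so that with IL-1b Comp was lower while Adamts7 was higher. Against the PDGF-DD vehicle array, IL-1b was 1.98-fold lower in Comp and 1.99-fold higher in Adamts7, both under 2-fold. With PDGF-DD, Comp was barely above the floor of 28.1. Thrombospondin-2 (Thbs2) was 10.7-fold higher with IL-1b and 16.9-fold lower with PDGF-DD, but the vehicle arrays were 24.5-fold apart, and against the PDGF-DD vehicle IL-1b was 2.30-fold lower. The basement membrane protein nidogen-1 (Nid1) was 3.69-fold lower with IL-1b by its brighter probe set, with a log2 ratio of -0.41 by the other.

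Of 8 inhibitors and clearance genes, 6 were tested. With IL-1b 1 was at least 2-fold higher and 1 lower, beside 6.15% and 5.42% of all genes, and with PDGF-DD none was. Timp3 had 3317 and 934 with the IL-1b vehicle and IL-1b, 3.55-fold apart, and 1759 and 1645 with the PDGF-DD vehicle and PDGF-DD, 1.07-fold apart. By its 3 other probe sets the log2 ratio with IL-1b lay between -2.67 and -1.71. The IL-1b array was 1.88-fold lower in Timp3 than the PDGF-DD vehicle array. The inhibitor Timp1 was 3.82-fold higher with IL-1b, and 1.27-fold higher against the PDGF-DD vehicle. Lrp1 was 1.67-fold higher with IL-1b and 1.503-fold lower with PDGF-DD.

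The 7 convertases and cell-surface cofactors were all tested, with 2 at least 2-fold lower for IL-1b and 1 higher and 1 lower for PDGF-DD. Over all genes 5.42% were lower with IL-1b and 4.67% with PDGF-DD. In either direction, 904 of the 10142 genes tested with PDGF-DD were at least 2-fold apart. Furin had 518 and 546 with the IL-1b vehicle and IL-1b, and 317 and 348 with the PDGF-DD vehicle and PDGF-DD. Pcsk5, another proprotein convertase, was 3.96-fold lower with IL-1b and 3.21-fold lower with PDGF-DD, with vehicle arrays 5.80-fold apart. Mmp17, a membrane-anchored metalloproteinase reported to activate Adamts4, was 8.83-fold lower with IL-1b, at 52.6 against 465. It was also low in the PDGF-DD vehicle (28.2), so that against that array IL-1b was 1.86-fold higher.

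**Figure D4:**
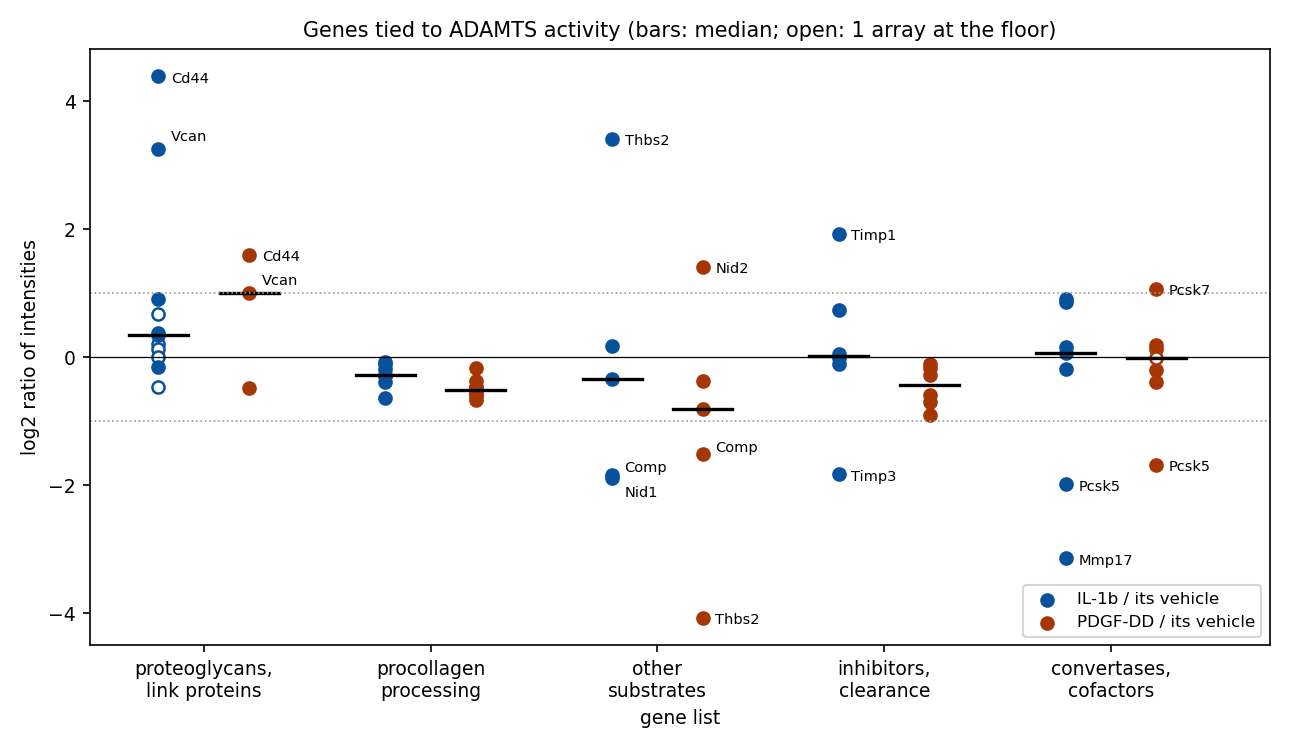
Log2 ratios of genes tied to ADAMTS activity, by list, for IL-1b over its vehicle (blue) and PDGF-DD over its vehicle (brown); 1 point per gene, black bars mark the list median, open points had 1 array at the floor, and genes at least 2-fold apart are named. The plotted procollagen genes stay within 2-fold for either factor, while Cd44, Vcan, Thbs2, Timp1, Timp3, Comp, Nid1, Pcsk5 and Mmp17 pass it with IL-1b.

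Of 5 receptor genes of the factors, 2 passed 2-fold upwards and none downwards with IL-1b, beside 6.15% of all genes upwards. None of the 4 tested passed it with PDGF-DD. The IL-1 receptor Il1r1 had 142 with the IL-1b vehicle and 2748 with IL-1b, 19.3-fold higher, and 599 and 859 with the PDGF-DD vehicle and PDGF-DD. Its 2 other probe sets gave log2 ratios of 2.09 and 2.30 with IL-1b. Pdgfrb, through which PDGF-DD mainly signals, was 1.14-fold lower with IL-1b and 1.82-fold lower with PDGF-DD. Its 2 other probe sets gave log2 ratios of -0.53 and 0.09 with PDGF-DD.

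Markers of other cells moved in part with the members that were higher with IL-1b. With IL-1b 4 of the 5 measured fibroblast markers passed 2-fold upwards, beside 6.15% of all genes, and none downwards. Their summed intensity was 2274 with the IL-1b vehicle, 7888 with IL-1b, 1398 with the PDGF-DD vehicle and 668 with PDGF-DD. Most of this sum was Lum. The markers did not share one order of arrays. Pdgfra had 84.0 with the IL-1b vehicle, 377 with IL-1b, 228 with the PDGF-DD vehicle and 140 with PDGF-DD. Between the vehicle arrays 2 of the 5 were higher and 1 lower in the PDGF-DD vehicle. Of all genes tested there, 1087 of 10389 were at least 2-fold apart in either direction, and 4.67% were lower. Of 7 leukocyte markers, Ptprc, Cd68, Csf1r and Cd3e were below the floor on all 4 arrays. The summed leukocyte intensity was between 1158 and 1271 on 3 arrays and 2710 with IL-1b, where Lyz2 had 1305 and Adgre1 41.7. Most of the sum on those 3 arrays was Cd14, which varied little. Cd14 had 1121 with the IL-1b vehicle, 1333 with IL-1b, 1220 with the PDGF-DD vehicle and 1117 with PDGF-DD. At most 1 of 6 endothelial markers, Tek, was above the floor on any array, and Pecam1, Kdr, Vwf, Nos3 and Tie1 were below it on all 4. Of 4 measured chondrocyte markers Col2a1 was below the floor on all 4 arrays, and their sum, mostly Col11a1, was 4044 with the IL-1b vehicle and between 328 and 946 on the others. The part of these markers in the ADAMTS values was not tested.

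Likeness of profile was measured as the Euclidean distance between mean-centred log2 intensities over the 4 arrays, among 10884 other genes above the floor on at least 1 array. Nearest to Adamts5 were Rerg, a Ras-related growth inhibitor (distance 0.07), the proteoglycan lumican (Lum, 0.20) and the adhesion molecule Clmp (0.53). Lum had 2067 with the IL-1b vehicle, 6041 with IL-1b, 1022 with the PDGF-DD vehicle and 372 with PDGF-DD. For Adamts7 they were the interleukin-4 receptor Il4r (0.17), the kinase Ulk2 (0.22) and the collectin Colec12 (0.22). Adamts9 was nearest to Spry1, an inhibitor of growth factor signalling (0.37), Sh3bgr (0.44) and the smooth muscle myosin Myh11 (0.51). Myh11 had 764, 138, 290 and 29.5 in the order above, but its other probe set gave smaller log2 ratios, -1.50 with IL-1b and -0.44 with PDGF-DD. With PDGF-DD, Adamts9 (21.4) and Sh3bgr (27.3) were below the floor and Myh11 just above it, so that the floor set part of these distances. Adamts1 was nearest to the junction protein F11r (0.23), Tspan18 (0.23) and Scrn2 (0.23), which was below the floor with IL-1b, at 21.1. Near Adamts4 lay Prr5l (0.08), Atp8b4 (0.10) and Calcrl (0.19), all of which were below the floor in both vehicles, so that the floor set part of their likeness. Among the members themselves Adamts4 and Adamts7 were the closest pair (1.06), although Adamts7 was only the 371st nearest gene to Adamts4. By rank Adamts7 was closer to Adamts5, as its 109th nearest gene, at a distance of 1.59. These distances rest on 4 arrays and are a description.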

How the data were processed

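RNA of 4 cultures was hybridised to 4 single-channel arrays. The deposited values are linear intensities made by the authors, and the submitters' processing notes name MAS5. Its version and scaling target are not stated in the sources used here, and detection calls were not used. All arrays had the same deposited median intensity, 53.3.

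Each array was rescaled to a common mean after trimming 2% of probe sets at either end (factors 0.951 to 1.03), and values under the 40th percentile (28.1) were set to it. Genes were named from the platform's 2016 annotation, which gave 1 symbol to 20832 probe sets, several to 436 and left 9831 unlisted. The probe set of highest mean log2 intensity stood for a gene. With 1 array per group no test was possible, and a difference is described where it is at least 2-fold and the gene exceeds the floor on 1 or both arrays. A fold with 1 array at the floor is a lower bound. Alternatives varied scaling, floor and probe set. The named genes were all members, the 3 nearest profiles per member, and the 3 largest absolute log2 ratios per list and factor, of which part is given. Adamts10, Furin, Serpinh1, and listed genes or markers given only as below the floor fall outside this rule. They were named after their values were seen. The members and lists were chosen with earlier results of these data known. The steps were run on simulated data without noise, with changes larger than 2-fold in genes well above the floor. That run could not show how reliable 2-fold differences between single arrays, or levels near the floor, are. Python 3.11.15, numpy 2.4.6, pandas 2.3.3, scipy 1.17.1 and matplotlib 3.10.9 were used.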

Additional observations from a re-analysis of the deposited data

Results flagged for a closer look

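Against the factors' own vehicles, Adamts5 and Adamts7 exceeded 2-fold upwards with IL-1b and downwards with PDGF-DD. The log2 ratio with IL-1b minus that with PDGF-DD was 2.66 for the brighter Adamts5 probe set and 2.44 for Adamts7. Thbs2 and Lum, from the gene lists, also went opposite ways, with differences of 7.49 and 3.01. With 1 array per group none of these differences was tested. For Thbs2 the vehicle arrays were 24.5-fold apart and for Adamts5 2.20-fold, so these values depend on which vehicle array is used. Against the other vehicle array, the log2 ratios of Thbs2 changed direction, to -1.20 with IL-1b and 0.54 with PDGF-DD. Those of Adamts5 (2.43 and -2.51) and Lum (2.56 and -2.47) kept theirs. Adamts7 was then 1.99-fold higher and 1.72-fold lower, both under 2-fold. The dimmer Adamts5 probe set was 1.97-fold lower with PDGF-DD than with its own vehicle.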

How the results depend on the processing

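Over 5 genes, 5 comparisons and 6 alternative settings (values as deposited, quantile normalization, floors at the 30th and 50th percentile, no floor with a pseudocount of 16, and the mean of all probe sets), 149 of 150 log2 ratios kept their sign and 143 their side of 2-fold. Part of the 150 could not change, so this tally overstates stability. Adamts1, Adamts4 and Adamts7 have 1 probe set, whose mean is the main value. The other floors altered only the PDGF-DD array, for Adamts9 and, at the 50th percentile, Adamts7. With the mean of all probe sets, 0 of 5 members differed 2-fold between the vehicle arrays, in place of 2. Adamts5 was then at -0.98 and Adamts9 at -0.96. That setting also took Adamts9 with IL-1b to -0.80 against its own vehicle and, with a change of sign from -0.46, to 0.17 against the PDGF-DD vehicle. The dim second probe set, at the floor on 3 arrays, enters that mean. As deposited, Adamts1 with PDGF-DD against the IL-1b vehicle was at -0.9998, just under 2-fold. With quantile normalization Adamts7 with IL-1b against the PDGF-DD vehicle was at 1.01, just past it. The count of members at least 2-fold apart was 4 or 5 with IL-1b and 3 or 4 with PDGF-DD, each against its own vehicle. No paired analysis was possible because each group holds 1 array. Without detection calls, levels near the floor, as for Adamts4 outside the IL-1b array, cannot be told from background with confidence.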

Other observations

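In the RefSeq order of genes, Adamts1 and Adamts5 are direct neighbours with no annotated gene between them, and Adamts15 and Adamts8 are neighbouring protein-coding genes. With IL-1b against its own vehicle, Adamts1 was 2.77-fold lower and Adamts5 2.44-fold higher, and Adamts15 was 1.18-fold lower and Adamts8 9.52-fold higher. Against the PDGF-DD vehicle array, IL-1b was 2.91-fold lower in Adamts1 and 5.39-fold higher in Adamts5. It was higher in both genes of the other pair, 3.79-fold in Adamts15 and at least 17.4-fold in Adamts8. The vehicle arrays were 4.47-fold apart in Adamts15. With PDGF-DD Adamts1 and Adamts5 were both lower, 2.27-fold and 2.58-fold. The pairs were picked after their values were seen.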
